A study of Caenorhabditis elegans with 6 samples.

Results

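The body-shape cuticle collagens described here are the products of 10 genes of *Caenorhabditis elegans* that were named for what their mutants look like, and they were taken by symbol from the 31180 genes listed in the deposited table. They are the Blister genes bli-1 and bli-2, the Long gene lon-3, the Roller gene rol-6, the Squat genes sqt-1, sqt-2 and sqt-3, and the Dumpy genes dpy-4, dpy-13 and dpy-17. The Dumpy collagens of the annular furrows were kept apart as a list of their own. All 10 genes were found, and none was dropped for a low value.

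The RNA came from whole L4 animals of the wild-type strain N2. In the HS group (n = 3 libraries) the animals had spent 4 h at 35°C, and in the CTRL group (n = 3) they stayed at 20°C without treatment. Ribosomal RNA was depleted before stranded libraries were made. The value used for each gene is the authors' mean normalized count over all 6 libraries, referred to below as the level. It holds HS and CTRL animals together, so it has no spread and no direction: how far a gene differed between HS and CTRL was not analysed here, and nothing below is a response to heat.

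The cuticle of *C. elegans* is an extracellular matrix that the epidermis secretes anew at each molt. Most of its protein is collagen, made as short chains with repeats of glycine and 2 further residues, which assemble as trimers, are trimmed by proteases and are then cross-linked. Loss or alteration of single chains changes the shape of the animal: shorter and fatter in Dumpy mutants, longer in Long mutants, twisted in Rollers, and with fluid-filled swellings of the cuticle in Blister mutants. Squat alleles can give several of these shapes. The amino acid and promoter sequences of these genes were not analysed here, and the genes are shown through their annotated models and levels.

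The 10 gene models in the Ensembl 115 annotation of WBcel235 were compact and much alike. The number of exons in the transcript with the longest coding part ran from 2 to 5, and its introns summed to between 47 and 238 bp. The predicted proteins had between 289 and 948 residues, with a median of 317.5. bli-1 stood apart with 948 residues and 5 exons, and the next longest protein was that of dpy-17 with 352 residues. For 8 of the 10 genes a single transcript was annotated. sqt-1 and sqt-3 had 2 each.

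**Figure D1:**
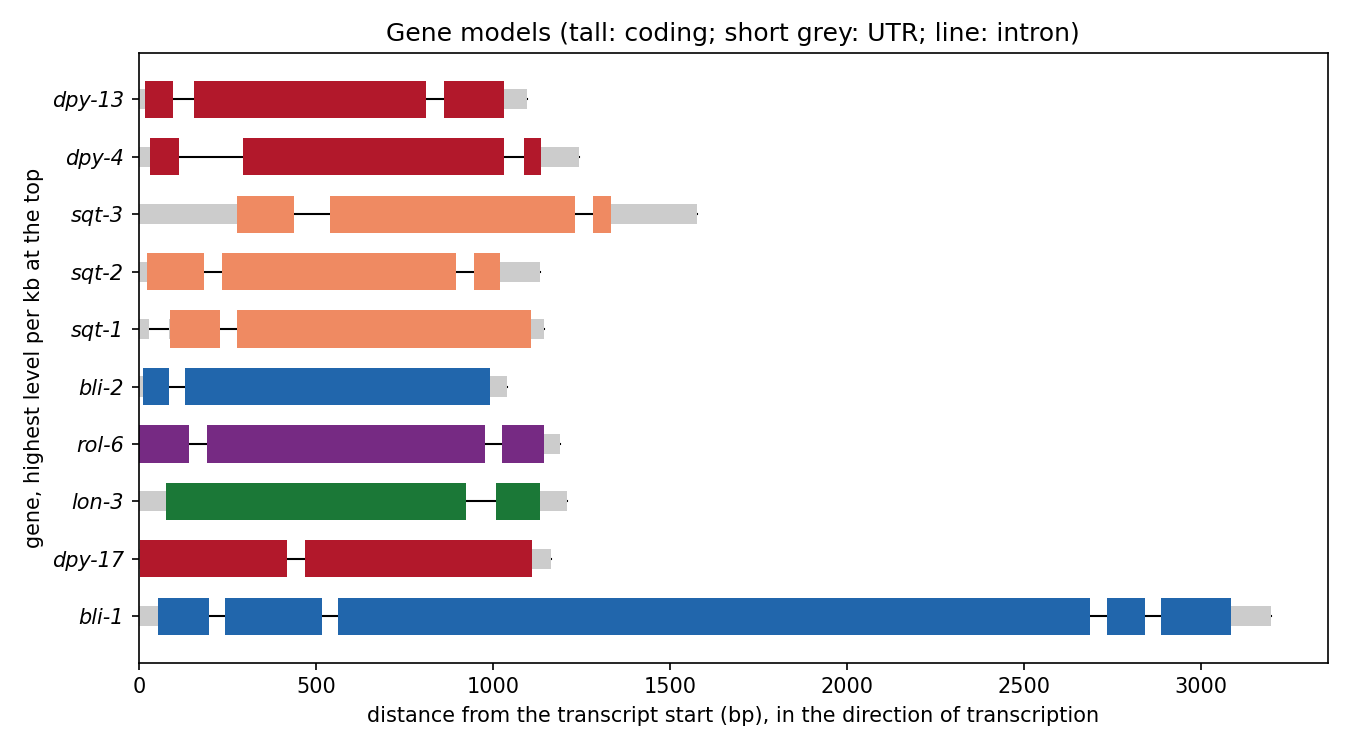
Models of the 10 genes, drawn to scale as distance from the transcript start in bp, for the transcript with the longest coding part; tall coloured blocks are coding, short grey blocks are UTR and the line marks introns. bli-1 is the longest, with 3010 bp of exon, whereas the others have between 989 and 1422 bp.

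The genes were spread over 4 chromosomes. Chromosome II held bli-1 (WBGene00000251; 10708960 to 10712156, plus strand), bli-2 (WBGene00000252; 5651394 to 5652434, minus strand) and rol-6 (WBGene00004397; 8733050 to 8734239, plus strand). It also held sqt-1 (WBGene00005016; 11336693 to 11337837, minus strand) and sqt-2 (WBGene00005017; 23325 to 24458, plus strand). On chromosome IV lay dpy-4 (WBGene00001066; 14985543 to 14986784, minus strand) and dpy-13 (WBGene00001074; 4235614 to 4236710, plus strand). On chromosome V lay lon-3 (WBGene00003057; 12197437 to 12198645, minus strand) and sqt-3 (WBGene00005018; 12352745 to 12354320, plus strand). dpy-17 (WBGene00001076; 5107330 to 5108492, plus strand) was alone on chromosome III. The genes do not form a cluster. Only bli-1 and dpy-13 had another collagen gene of these lists within 10 kb, col-80 at 672 bp from bli-1 and col-34 at 6834 bp from dpy-13, and the closest pair among the 10 genes was lon-3 and sqt-3, 154099 bp apart. col-80 lies on the same strand as bli-1 and had a level of 13105, against 1755 for bli-1, both undivided by length. The authors report that in HS transcripts can run on from an upstream gene into a neighbour on the same strand. On which side of bli-1 col-80 lies was not recorded here, and whether such reads reached bli-1 was not tested.

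Several of these short genes lay inside larger ones. 4 of the 10 genes were enclosed by a protein-coding gene on the opposite strand: bli-1 by dph-2, bli-2 by zyg-1, lon-3 by ogdh-2 and dpy-4 by atln-2. For bli-2, lon-3 and dpy-4 no exon base was shared with the enclosing gene, and for bli-1 the shared part was 7 bp. The enclosing genes had levels of 621 (dph-2), 704 (zyg-1), 2349 (ogdh-2) and 84.2 (atln-2). These levels are not divided by length. An ncRNA gene opposite sqt-3 overlapped its exons by 144 bp but was listed at 0.478. The kit keeps strand information, but the strand setting of the read counting is not given in the sources used here. Reads from the 2 strands may therefore not have been told apart where exons overlap. The same holds where unspliced RNA of an enclosing gene spans the gene inside it. 5 of the 10 genes overlapped no annotated gene.

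All 10 genes were backed by many reads, which does not tell whether every read came from the gene itself. Undivided by length, their levels ran from 866 for dpy-17 to 7933 for dpy-13, with a median of 2908. Together they summed to 37738, which is 0.241% of the level of all protein-coding genes. By this undivided level 9 of the 10 stood in the top 10% of all genes listed, and dpy-17, with 88.2% of genes below it, did not. Per kb of exon 9 of the 10 again stood there, but the gene left out was bli-1. By undivided level the top 10% held 51.6% of the 155 genes with a col- symbol, and none of the 6 furrow collagens. Each member's level rests on at least 2783 reads, a bound drawn from the value of 1 read in each library. Counting error alone is then at most 1.90% of a level, although this says nothing of the spread between animals.

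To compare one gene with another, levels were divided by the summed length of the exons in Ensembl 115. The authors counted reads on Ensembl 88 genes, so a length may differ from that of the exons counted. How far this moved the values per kb was not tested. Per kb of exon a factor of 13.8 separated the highest from the lowest of the 10 genes. The Dumpy collagens held both a pair at the top and a gene near the bottom. dpy-13 had 8021 per kb and dpy-4 had 7808 per kb, a ratio of 1.03, so their order cannot be drawn from these values. By coding length instead of exon length dpy-4 came first, at 9042 per kb against 8756 per kb for dpy-13. dpy-17, whose product acts with SQT-3 in the cuticle, had 779.6 per kb and took place 9 of the 10.

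Per kb of exon the 3 Squat collagens lay close together below the leading pair. sqt-3, which encodes a collagen whose carboxyl end is cleaved by the astacin protease DPY-31, had 4599 per kb. sqt-2 had 3645 per kb and sqt-1 had 3312 per kb. These neighbours differed by ratios of 1.26 and 1.10. Because sqt-3 has long untranslated parts, with 1422 bp of exon for 903 bp of coding sequence, its value was 7243 per kb of coding length. It kept place 3 in either case, but by coding length it lay nearer to dpy-13 at 8756 per kb than to sqt-2 at 4199 per kb.

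Both Blister genes encode collagens of the struts that join the layers of the adult cuticle, but their values were far apart. bli-2 had 2372 per kb, whereas bli-1, with the largest summed exon length, had 583 per kb, the lowest of the 10. Before division by length the pair were closer, at 2358 for bli-2 and 1755 for bli-1.

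The Roller and Long genes fell between the Blister pair. rol-6, a gene widely used as a visible marker in transgenic worms and known to act together with sqt-1, had 1766 per kb. lon-3, a collagen that limits body length, had 1165 per kb. Per kb of exon the whole order was dpy-13, dpy-4, sqt-3, sqt-2, sqt-1, bli-2, rol-6, lon-3, dpy-17 and bli-1. In this order each gene exceeded the next by a ratio of between 1.03 and 1.70. The widest step was that from dpy-4 to sqt-3. By coding length it was instead that from sqt-3 at 7243 per kb to sqt-2 at 4199 per kb. Whether neighbours differ beyond the spread between animals cannot be said without values of single libraries.

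**Figure D2:**
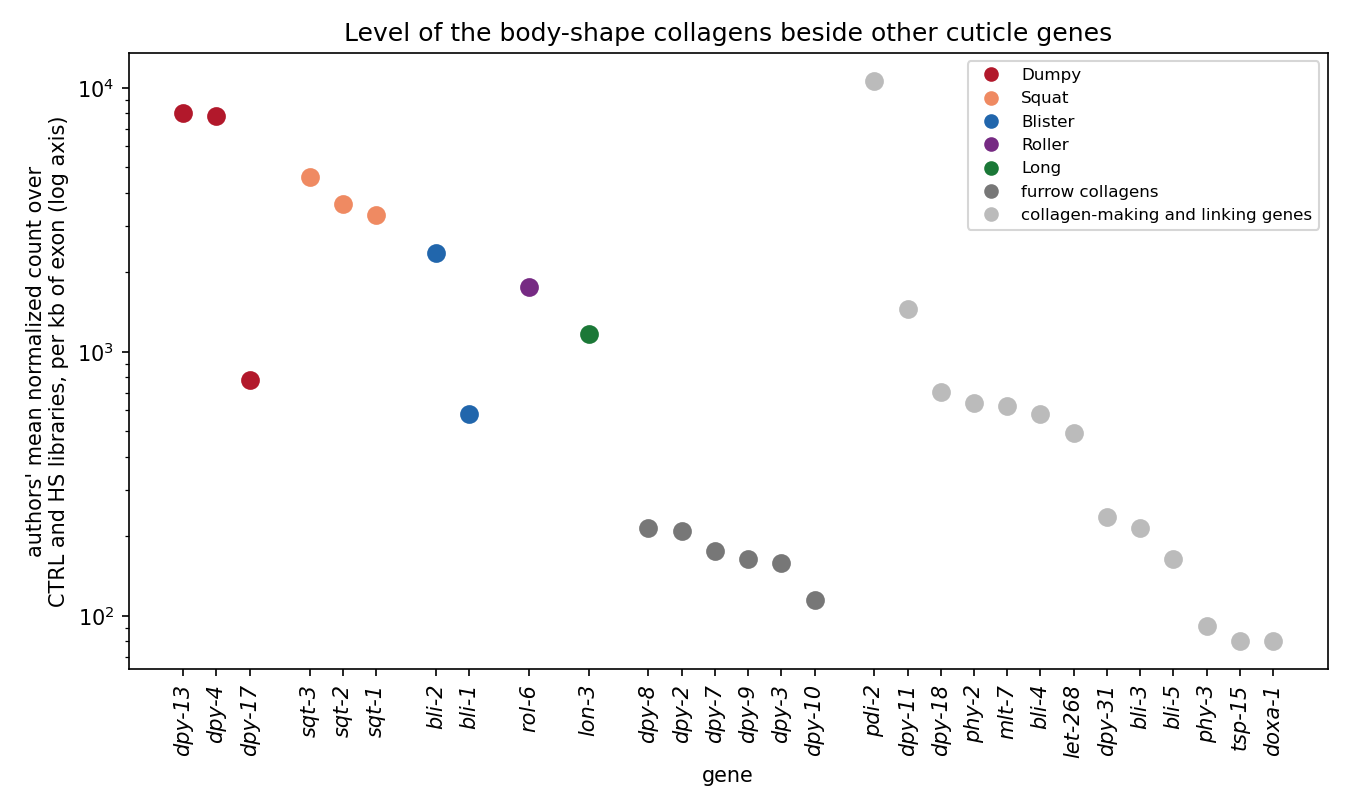
Authors' mean normalized count over CTRL and HS libraries per kb of exon (log axis) for the 10 body-shape collagens by class (colours), the 6 furrow collagens and 13 genes for making and linking collagen; each point is 1 gene and no error is available. All 10 body-shape collagens, down to bli-1 at 583, lie above the highest furrow collagen, dpy-8 at 215. So do the 86 col- genes that exceed bli-1, which are not drawn here.

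The body-shape collagens stood above the furrow collagens without overlap. This was not particular to them: 86 of the 155 col- genes exceeded bli-1, the lowest member, and so exceeded every furrow collagen too. The body-shape collagens had a median of 2842 per kb, against 169.9 per kb for the furrow collagens, which build the annular furrows and also give Dumpy mutants. The furrow genes covered a narrow range, with 215 per kb of exon for dpy-8 at the top and 115 for dpy-10 at the bottom. By coding length dpy-2 was highest, at 243 per kb, and dpy-3 lowest, at 168 per kb. The lowest member, bli-1, was 2.72 times the highest furrow collagen, and dpy-13 was 37.4 times. For dpy-10, an annotated gene on the same strand overlaps its exons by 780 bp and was not analysed here. No test was run, since the values of different genes are not replicates, and the gap belongs to the mean over HS and CTRL libraries and cannot be assigned to either.

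Within the large col- family the same genes lay within the range of the others. The 155 col- genes ran from 0.778 to 33983 per kb with a median of 1128. Of these, 36 lay above every body-shape collagen, 50 lay between them and 69 lay below. dpy-13 and dpy-4 each exceeded 76.8% of the col- genes, rol-6 exceeded 58.1% and bli-1 exceeded 44.5%. Of the 155 genes, 30 had a level under 10, and no body-shape collagen came near that range. Among the other 125 col- genes, dpy-13 and dpy-4 each exceeded 71.2%, rol-6 exceeded 48% and bli-1 exceeded 31.2%. The median of the body-shape collagens was 2.52 times that of all 155 col- genes and 1.43 times that of these 125.

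**Figure D3:**
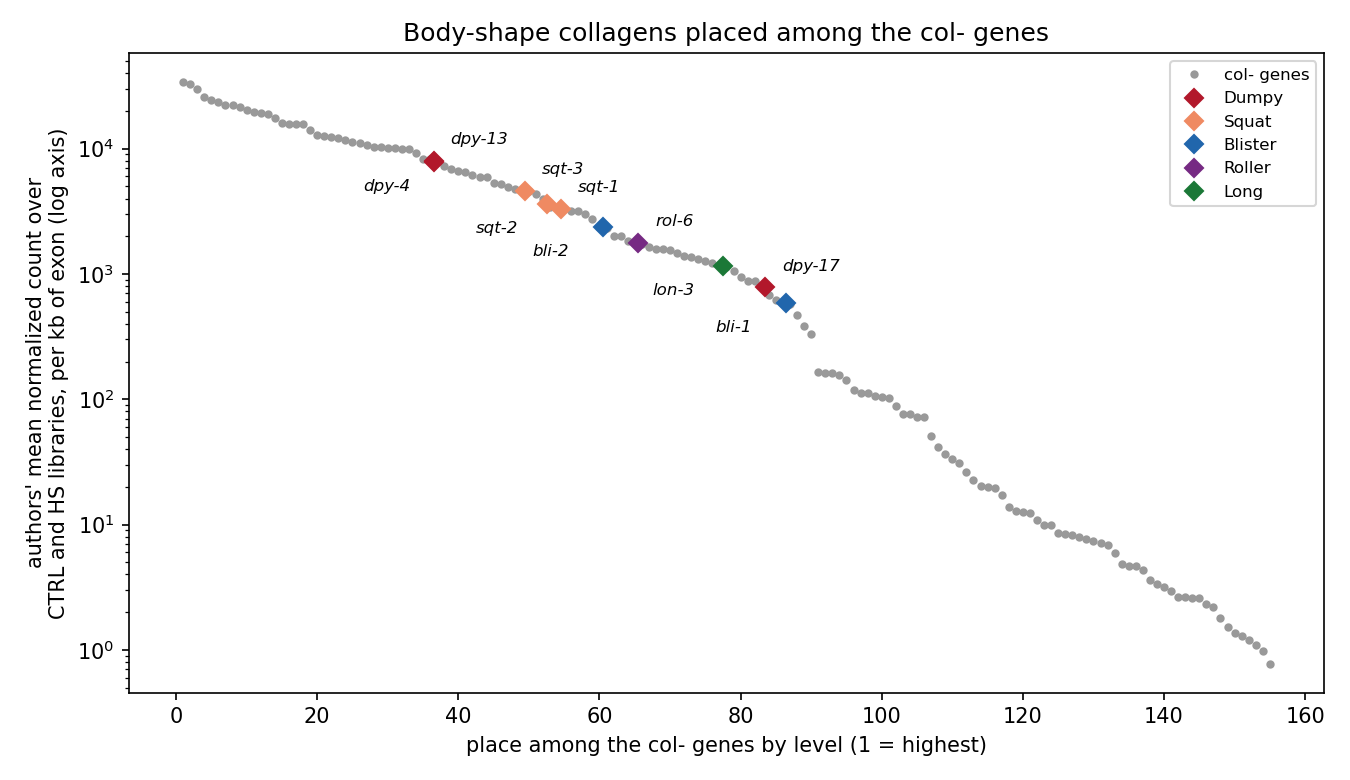
The 155 col- genes (grey points) in falling order of the authors' mean normalized count over CTRL and HS libraries per kb of exon (log axis), with the 10 body-shape collagens (diamonds, coloured by class) set at their place in that order. The diamonds run from dpy-13 and dpy-4, with 36 col- genes above them, to bli-1 with 86 above.

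The genes that make and link collagen served as a second reference. They were the prolyl 4-hydroxylase subunits dpy-18, phy-2 and pdi-2 and the related phy-3, the lysyl hydroxylase let-268, the proprotein convertase bli-4, the astacin dpy-31, the thioredoxin-like dpy-11, the dual oxidase bli-3 with its partners tsp-15 and doxa-1, the peroxidase mlt-7 and the Kunitz domain gene bli-5. Only pdi-2, at 10608 per kb, lay above all 10 body-shape collagens. pdi-2 encodes protein disulfide isomerase, which also serves other secreted proteins. The runner-up, dpy-11, had 1453 per kb of exon, and 7 of the 10 collagens exceeded it. That count depended on the length used: per kb of coding length dpy-11 had 2744, above bli-2 at 2527 and rol-6 at 1843. For bli-4 the value was 580 per kb of exon but 1553 per kb of coding length, the latter above lon-3 at 1348. The hydroxylase subunits dpy-18 and phy-2 had 707 and 642 per kb, close to dpy-17 and bli-1. dpy-31, the protease that acts on SQT-3, had 236 per kb, against 4599 per kb for its substrate gene. The oxidase partners doxa-1 and tsp-15 were lowest per kb of exon, at 80.1 and 80.5, but by coding length phy-3 was lowest, at 104.5 per kb.

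Across the whole table, the scaling factors of the 6 libraries, read from genes seen with a single read, ran from 0.536 to 1.47, and these values name no library. Ribosomal RNA genes still held 46.9% of the summed level. Markers of the main tissues were all present, with levels of 201 for dpy-7, 182 for elt-3 and 609 for lin-26 in the epidermis, which makes the cuticle. In muscle, myo-3 had 18629, in the intestine ges-1 had 815, in the germ line pgl-1 had 6929, and in neurons rab-3 had 112. In such whole-animal RNA, fewer cells of a type and less RNA per cell cannot be told apart.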

How the data were processed

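RNA-seq was performed on 3 HS and 3 CTRL libraries. Per the authors, adapters were removed by fastq-mcf, STAR placed the reads on WBcel235, FeatureCounts assigned them to Ensembl 88 genes and DESeq2 was run. Tool versions are not given in the sources used here. The deposited signal used here is, for each gene, the mean over all 6 libraries of counts divided by size factors. The remaining columns hold the authors' comparison of HS with CTRL (log2 fold change, its standard error, test statistic, p-value and adjusted p-value) and were not used. The table holds no values of single libraries, so HS and CTRL were not compared and the planned count model was not run.

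Symbols were matched by gene ID for 28726 of 31180 genes. Gene models came from Ensembl 115, which has 30963 of them. Exon length is the union of all annotated exons, and coding length is that of the longest coding part without the stop codon. The value of 1 read in each library was taken as the lowest levels shared by at least 20 genes that are not sums of lower ones within 1e-06. This step was tested on simulated data with widely spaced scaling factors. Factors as close as 1.43, 1.44 and 1.47, which were found here, were not simulated. The value of 1 read bounds the reads behind a level, for counting error only. Members, lists and tests were chosen with earlier results of these data known. The members, the furrow and collagen-making lists and col- genes by symbol were named by rule. col-80, col-34, the enclosing genes and the ncRNA were named after their positions were seen. Python 3.11.15, pandas 2.3.3, numpy 2.4.6 and matplotlib 3.10.9 were used.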

Additional observations from a re-analysis of the deposited data

How the results depend on the processing

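No paired analysis was possible because the values of single libraries are not part of the table used, and for the same reason no replicate was left out in turn and a count model of HS against CTRL could not be run under any scaling or filter. The planned protein and promoter features were not run. The number of body-shape collagens in the top 10% of genes by level was 9 among all genes, 9 per kb of exon, 8 among protein-coding genes and 6 among genes with a level of at least 10. The ratio of the highest to the lowest member was 13.8 per kb of exon, 14.7 per kb of coding length and 9.16 without division by length. The median of the members was 16.7 times that of the furrow collagens per kb and 15.1 times without division by length. It was 2.52 times the median of the col- genes and 1.43 times when only col- genes with a level of at least 10 were kept. The order of the members depended on the length used: dpy-13 was highest per kb of exon and undivided, but dpy-4 per kb of coding length, and bli-1 was lowest by either length, but dpy-17 undivided. The widest step between neighbours in the order lay just below dpy-4 per kb of exon, but just below sqt-3 per kb of coding length. A limit of every value is that it is a mean over HS and CTRL with no spread.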
